A study of Homo sapiens with 12 samples.

Results

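The genes described here encode dual-specificity phosphatases of MAP kinases. They are the 10 rows of the deposited count table named DUSP1, DUSP2, DUSP4, DUSP5, DUSP6, DUSP7, DUSP8, DUSP10, DUSP16 and DUSP14, of 54261 rows in all. All 10 passed the filter on low counts and were tested among 17572 genes, although DUSP8 and DUSP16 had few reads. RNA was sequenced from cultures labelled as the colorectal cancer lines DLD1 and SW480, each with and without lactate. The 4 groups of 3 libraries were DLD1 cells with lactate, DLD1 cells without lactate (control), SW480 cells with lactate and SW480 cells without lactate (control). The labels call the libraries biological replicates and give neither a dose nor a time of treatment. DLD1 and SW480 are established human lines, and the labels name no separate donors.

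MAP kinases such as ERK, JNK and p38 are switched on by phosphate groups on a threonine and a tyrosine of the activation loop, and the dual-specificity phosphatases of this family switch them off by removing both. Most are short-lived proteins whose genes are switched on by the same kinases they inhibit, which closes a negative feedback loop. DUSP1, DUSP2, DUSP4 and DUSP5 act in the nucleus, DUSP6 and DUSP7 act on ERK in the cytoplasm, DUSP8, DUSP10 and DUSP16 prefer the stress kinases JNK and p38, and DUSP14 is a small atypical enzyme without the kinase-binding domain of the others.

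Promoter windows of 300 bases, from 250 before to 50 after an annotated start, were held in a RefSeq table of GRCh38.p14 for 8 of the 10 genes. The following 5 are shown because 4 belong to genes that rose with lactate in the libraries labelled SW480 and 1, that of DUSP8, shares a response element with DUSP1 in a gene with few reads. They lie on the minus strand, at chr5:172771146-172771445, chr2:96145391-96145690, chr12:89352452-89352751, chr3:52056522-52056821 and chr11:1572222-1572521, and are written 5′ to 3′ along the gene. Capitals mark every match to the cyclic AMP response element (CRE, TGACGTCA), its first letters alone (TGACG, the CRE core), the core of the hypoxia response element (HRE core, ACGTG) and the E-box (CACGTG), on either strand.
DUSP1: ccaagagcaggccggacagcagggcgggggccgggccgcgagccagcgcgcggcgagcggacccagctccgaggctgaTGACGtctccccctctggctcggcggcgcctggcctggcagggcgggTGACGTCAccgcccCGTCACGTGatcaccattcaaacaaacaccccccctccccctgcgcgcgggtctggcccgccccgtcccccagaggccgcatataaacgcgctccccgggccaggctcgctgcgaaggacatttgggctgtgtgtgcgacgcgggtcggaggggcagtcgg
DUSP2: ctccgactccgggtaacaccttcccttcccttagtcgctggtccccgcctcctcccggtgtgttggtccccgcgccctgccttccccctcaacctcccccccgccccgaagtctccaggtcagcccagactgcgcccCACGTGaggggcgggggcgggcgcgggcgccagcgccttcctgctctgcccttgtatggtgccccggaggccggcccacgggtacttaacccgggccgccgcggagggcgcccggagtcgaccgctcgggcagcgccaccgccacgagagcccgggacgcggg
DUSP6: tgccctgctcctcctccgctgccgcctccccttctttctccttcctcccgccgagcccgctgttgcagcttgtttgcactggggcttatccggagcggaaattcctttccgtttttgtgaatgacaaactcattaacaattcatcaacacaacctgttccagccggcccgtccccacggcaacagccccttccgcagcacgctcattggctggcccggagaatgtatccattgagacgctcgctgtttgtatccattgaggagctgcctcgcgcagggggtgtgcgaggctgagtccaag
DUSP7: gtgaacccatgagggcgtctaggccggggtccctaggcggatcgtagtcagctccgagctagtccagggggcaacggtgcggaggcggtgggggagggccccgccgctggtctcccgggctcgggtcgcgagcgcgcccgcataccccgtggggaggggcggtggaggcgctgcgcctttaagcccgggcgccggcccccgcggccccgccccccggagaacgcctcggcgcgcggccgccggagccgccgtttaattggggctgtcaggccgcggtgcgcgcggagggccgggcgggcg
DUSP8: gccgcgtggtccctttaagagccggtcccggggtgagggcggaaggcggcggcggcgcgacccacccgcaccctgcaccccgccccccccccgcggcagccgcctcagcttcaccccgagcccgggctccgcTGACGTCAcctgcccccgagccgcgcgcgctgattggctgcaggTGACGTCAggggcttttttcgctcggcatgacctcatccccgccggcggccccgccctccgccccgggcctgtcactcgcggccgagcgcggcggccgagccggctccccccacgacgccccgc
The DUSP1 window held 1 full CRE, from 125 to 118 bases before the start, and an E-box from 108 to 103 bases before it whose letters overlap a CRE core on the other strand. DUSP2 had 1 E-box, from 113 to 108 bases before the start, and the DUSP8 window had 2 full CREs. The start of the DUSP8 window lies 577 bases inside the outer end of the RefSeq gene, and its last bases were not found in the GENCODE transcripts of DUSP8. The starts of the DUSP10 and DUSP14 windows lie 5189 and 1325 bases inside the outer ends of their genes. The last bases of the DUSP16 window were not found in its transcripts either. The DUSP10 window held 1 CRE core across its start. A CRE core lies within every CRE and a hypoxia core within every E-box, so these matches are not separate. Of all 35116 promoter windows in the table, 1.85% held a CRE, 24.6% a CRE core, 21.4% a hypoxia core and 7.26% an E-box. The ETS motif in the form CCGGAAG (10.3% of windows) and the AP-1 motif in the form TGANTCA (7.71%) were in none of the 8 windows. Other forms of these motifs were not searched. The GC box GGGCGG (45.0%) was in 7 of the windows, all but DUSP6. A match describes the letters of a window and does not show that a factor binds there.

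**Figure D1:**
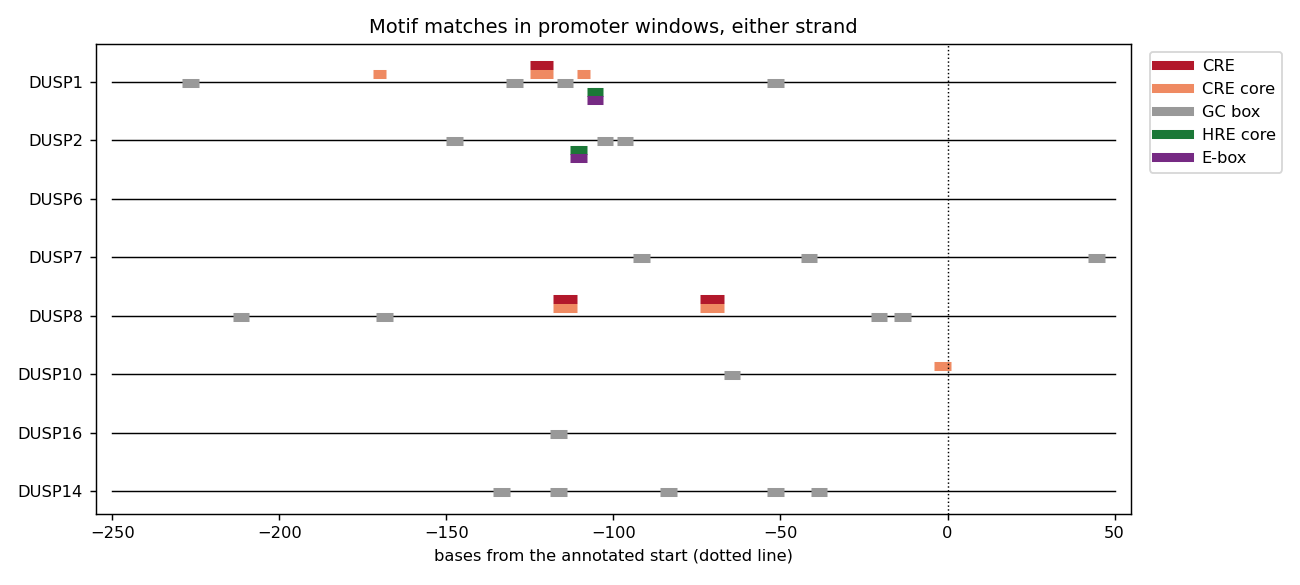
Matches to 5 motifs on either strand in the promoter windows of 8 members, by distance in bases from the annotated start (dotted line). DUSP1 and DUSP8 hold CRE matches, DUSP1 and DUSP2 hold an E-box, and the DUSP6 window holds no match.

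Total counts ran from 12302311 to 22662063 per library. Levels are in CPM, read counts relative to the library total, and every group value is the mean ± SD of n = 3 libraries. The DLD1 label fitted most of its epithelial markers, with EPCAM at 671 ± 14.6 CPM in lactate libraries and 701 ± 13.8 CPM in control libraries. KRT20 was low in DLD1 too, at 0.742 ± 0.0880 CPM with lactate and 0.816 ± 0.127 CPM without. In the libraries labelled SW480 EPCAM was at 0.609 ± 0.220 CPM with lactate and 0.964 ± 0.184 CPM without, CDH1 at 1.28 ± 0.0852 and 1.45 ± 0.131 CPM, CDX2 and VIL1 were near 0 and KRT20 was at 0. These libraries did express KRT8, KRT18 and KRT19, and the fibroblast genes COL3A1 (127 ± 3.81 CPM with lactate, 143 ± 10.3 CPM without) and DCN (65.4 ± 8.82 and 81.2 ± 5.73 CPM). The data therefore go against the SW480 label, which is kept below only as the name of those libraries. DLD1 control 2 and DLD1 control 3 stood apart from the other libraries, since their log2 difference from the rest of their group had an SD of 0.539 and 0.443 over 12068 genes, against at most 0.262 elsewhere. Across genes it tracked transcript GC content, at Spearman's rho -0.79 in control 2 and 0.82 in control 3. Other libraries shared this trait to a lesser degree, with -0.61 in SW480 lactate 3, -0.51 in DLD1 lactate 2, 0.50 in SW480 lactate 1 and 0.46 in DLD1 lactate 3. Every DLD1 result below rests in part on controls 2 and 3.

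Lactate raised 6 of the 10 phosphatase genes in the libraries labelled SW480 and lowered 0. They were the 4 nuclear members DUSP5, DUSP2, DUSP4 and DUSP1 and the 2 cytoplasmic ERK phosphatases DUSP6 and DUSP7, with rises of 1.35-fold to 3.27-fold. A gene was called where edgeR's quasi-likelihood test gave a Benjamini-Hochberg adjusted p under 0.05 over all tested genes. By that rule 6.83% of all tested genes were called higher and 5.59% lower in the same comparison. The members were chosen with earlier results of these data known, so 6 of 10 beside that share is a description and not a test. The lactate libraries of all 6 lay above the controls, beside 18.9% of all tested genes. The median log2 fold change was 0.50 over the 10 members and -0.01 over all tested genes. The 6 were also called after removal of each library's trend along GC content and length. That fit called 5032 of all genes, against 2183 without the removal, so its background share was larger. The summed level of the 10 was 2151 ± 156 CPM with lactate and 1416 ± 157 CPM in controls.

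DUSP5, a nuclear phosphatase that acts on ERK alone, had the largest rise. Its levels were 261, 372 and 275 CPM in SW480 lactate libraries 1 to 3, against 73.2, 119 and 91.4 CPM in SW480 controls 1 to 3. The lowest lactate library was well above the highest control library. The log2 fold change was 1.71 ± 0.17 (SE), or 3.27-fold with a 95% interval of 2.52 to 4.23, with an adjusted p of 7.15e-05. It ranked 21 by p among all tested genes. Its share of the summed CPM of the 10 members was 14.01% with lactate and 6.60% without. DUSP5 lies on chromosome 10, 110497907 to 110511533 (GRCh38.p14, plus strand).

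DUSP2, a nuclear phosphatase of ERK and p38 best known from activated immune cells, was at 39.9, 43.7 and 42.4 CPM with lactate, against 21.7, 27.2 and 22.1 CPM in SW480 controls. All lactate libraries were above all controls, with the smallest spread between lactate libraries among the nuclear members. The log2 fold change was 0.85 ± 0.14 (1.81-fold, 95% interval 1.46 to 2.23, adjusted p 0.00183). DUSP4, a nuclear phosphatase of ERK and JNK, was at 512, 497 and 433 CPM with lactate, against 265, 341 and 315 CPM in controls. The groups did not overlap, and SW480 control 1 was the lowest library. DUSP4 had a log2 fold change of 0.67 ± 0.14 (1.59-fold, adjusted p 0.00601), but was not called when SW480 control 1 was left out (0.58, adjusted p 0.0535). DUSP2 lies on chromosome 2, 96143169 to 96145440, and DUSP4 on chromosome 8, 29333064 to 29350684, both on the minus strand.

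DUSP1, the founding member of the family and an early-response gene whose product acts on p38, JNK and ERK, was the most abundant member here. It stood at 1199.6, 1234 and 1086 CPM with lactate, against 801, 975 and 877 CPM in SW480 controls. The groups did not overlap, although the lowest lactate library was only a little above the highest control. Its log2 fold change of 0.43 ± 0.12 (1.35-fold, 95% interval 1.13 to 1.62, adjusted p 0.0329) was the smallest of the 6 and the least secure. The call was lost without SW480 lactate 1 (adjusted p 0.0692), lactate 2 (0.124), control 1 (0.176) or control 3 (0.0962), and without DLD1 lactate 3 (0.0524). DUSP1 lies on chromosome 5, 172768096 to 172771195, on the minus strand.

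DUSP6, the cytoplasmic phosphatase specific for ERK whose RNA is widely read as a sign of ERK activity, was at 62.4, 64.8 and 73.6 CPM with lactate, against 37.2, 44.5 and 44.6 CPM in SW480 controls. No lactate library overlapped a control. The log2 fold change was 0.69 ± 0.10 (1.61-fold, 95% interval 1.38 to 1.89, adjusted p 9.65e-04). In the GENCODE annotation 1789 exonic bases of DUSP6 overlap the antisense gene AC024909.2, and without a stated strand setting reads of the pair cannot be told apart. DUSP7, the close relative of DUSP6 in the cytoplasm, was at 58.2, 61.5 and 52.9 CPM with lactate, against 37.5, 39.7 and 40.7 CPM in controls. Again the groups did not overlap, and the controls lay close together. DUSP7 had a log2 fold change of 0.58 ± 0.14 (1.49-fold, adjusted p 0.0146), and lost its call without SW480 lactate 2 (0.53, adjusted p 0.0767) or control 1 (0.54, 0.0875). DUSP6 lies on chromosome 12, 89347235 to 89352501, and DUSP7 on chromosome 3, 52048919 to 52056571, both on the minus strand.

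The members that prefer stress kinases were not called in the libraries labelled SW480. DUSP10, a phosphatase of p38 and JNK, was at 21.5, 27.6 and 25.2 CPM with lactate, against 18.6, 21.3 and 23.9 CPM in SW480 controls. The groups overlapped, and the log2 fold change of 0.24 had a 95% interval of -0.03 to 0.52 (adjusted p 0.241). DUSP8, a phosphatase of JNK and p38 known from brain and heart, had 4 to 6 reads with lactate and 3 to 10 in controls. DUSP16, which binds JNK, had 12 to 16 reads with lactate and 8 to 30 in controls, where control 1 held the highest level (1.93 CPM, against 0.650 and 0.752 CPM). The atypical DUSP14 was at 1.75, 1.65 and 2.85 CPM with lactate, against 2.77, 3.82 and 1.62 CPM in controls. For these 3 genes the groups overlapped and the intervals were wide, at -1.72 to 1.39 on the log2 scale for DUSP8, -1.37 to 0.56 for DUSP16 and -1.14 to 0.41 for DUSP14. A difference was not detectable for them at this depth. The pseudogene DUSP8P5 had more reads than DUSP8 itself, at 6.66 ± 1.27 CPM with lactate and 5.19 ± 0.894 CPM without, and DUSP5P1 had 4.67 ± 0.780 and 4.34 ± 0.823 CPM. Reads shared between a gene and its pseudogene could be counted for either.

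**Figure D2:**
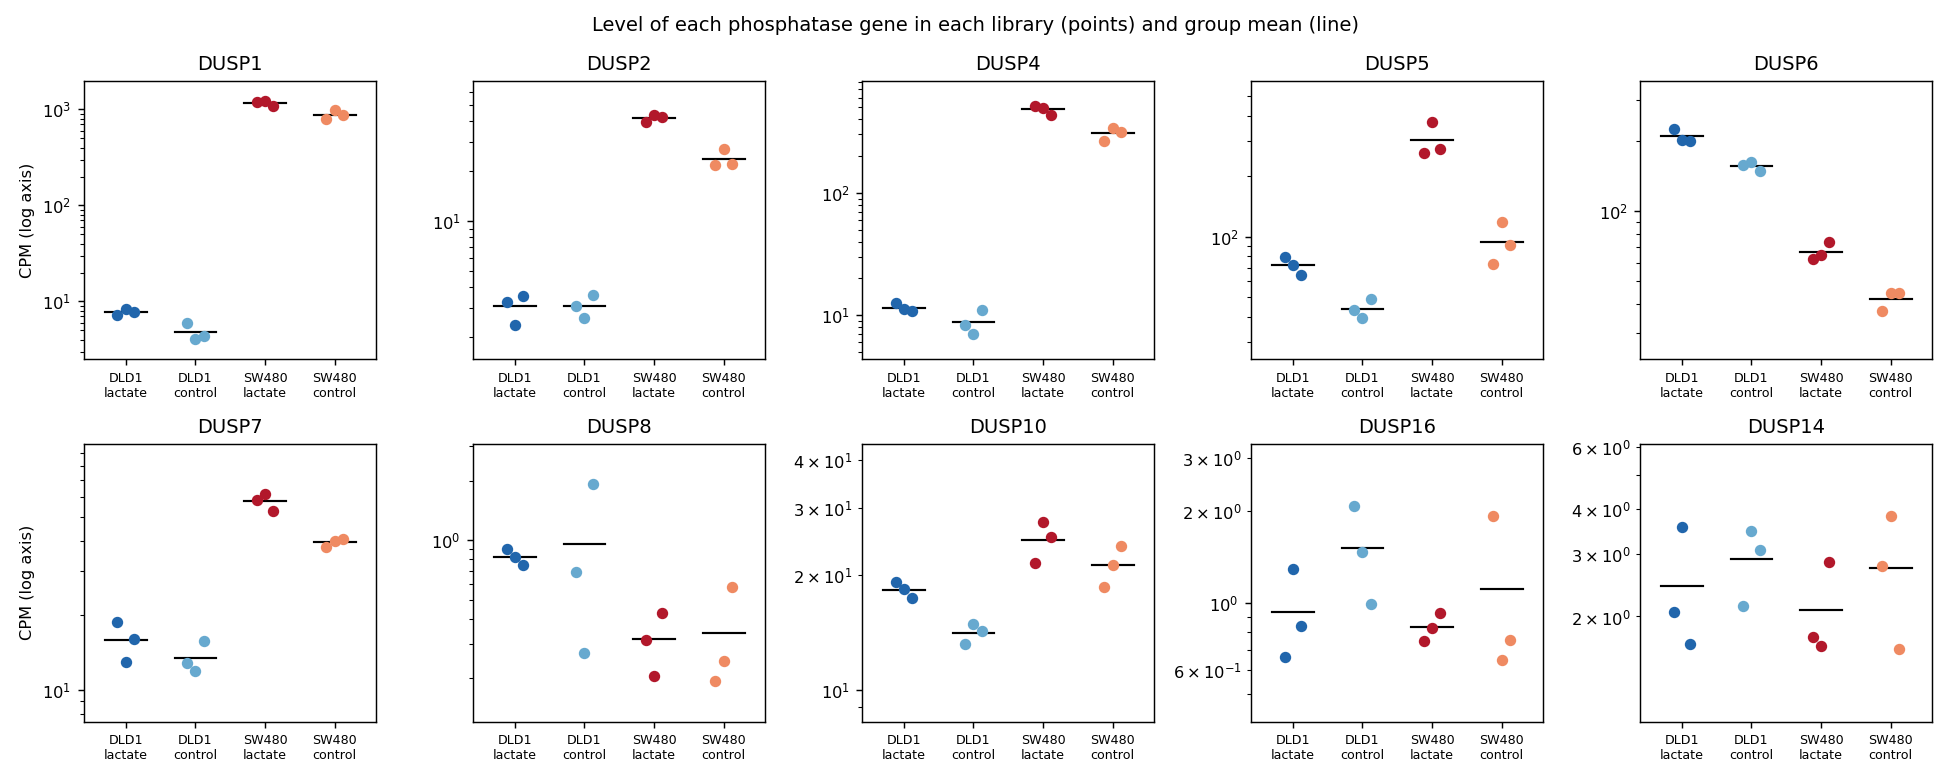
Level of each phosphatase gene in CPM (log axis, with its own range in each panel) in the 12 libraries, as points, and the mean of each group of 3, as a line. In the libraries labelled SW480 the lactate points of DUSP1, DUSP2, DUSP4, DUSP5, DUSP6 and DUSP7 all lie above the control points, and in DLD1 those of DUSP1, DUSP5, DUSP6 and DUSP10 do.

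Some markers of other cells moved in the same comparison. Of the 10 markers of other cell types 6 were tested, and COL1A1 and CD68 rose with lactate in the libraries labelled SW480. The fibroblast genes did not move together. COL3A1 was at 127 ± 3.81 CPM with lactate and 143 ± 10.3 CPM without, and DCN at 65.4 ± 8.82 and 81.2 ± 5.73 CPM. Both means were lower with lactate, and 0 markers of this list were called lower. COL1A1, a fibroblast collagen gene, was at 48.7 ± 0.429 CPM with lactate and 21.1 ± 1.90 CPM without (log2 1.23, adjusted p 6.52e-05). CD68, a lysosomal protein gene used to mark macrophages, was at 95.4 ± 9.12 and 39.6 ± 9.86 CPM (log2 1.30, adjusted p 0.00218), while the leukocyte marker PTPRC was at 0.157 ± 0.138 and 0.0793 ± 0.0877 CPM. The summed level of the 10 markers was 339 to 366 CPM with lactate and 292 to 309 CPM without. Of the 8 epithelial markers KRT18 (log2 -0.61) and KRT8 (-0.51) fell and KRT19 (0.71) rose, and the summed level was 1400 to 1665 CPM with lactate and 1949 to 2298 CPM without. The KRT8 call was lost when any 1 of 5 libraries was left out and the KRT19 call when any 1 of 10 was. In such bulk samples fewer cells of a type and less RNA per cell cannot be told apart. The part of these markers in the phosphatase result was not tested.

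In DLD1 edgeR called 0 members, beside 0.381% of all tested genes called there (0.336% higher and 0.0455% lower). The 4 members whose lactate libraries all lay above the controls were DUSP1, DUSP5, DUSP6 and DUSP10, beside 10.7% of all tested genes. An unadjusted p under 0.05 was reached by these 4 and by DUSP4, beside 18.5% of all tested genes. Of the other tools, DESeq2 called 3 members (DUSP1, DUSP5 and DUSP6), beside 5.98% of the genes it gave an adjusted p, and limma-voom 0, beside 0.455%. The median log2 fold change was 0.28 over the members and 0.02 over all tested genes. The summed level was 342 ± 24.3 CPM with lactate and 250.01 ± 2.03 CPM in controls.

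Among the nuclear members, DUSP5 was at 79.2, 71.9 and 64.8 CPM in DLD1 lactate libraries 1 to 3, against 43.4, 39.4 and 48.9 CPM in DLD1 controls 1 to 3. The groups did not overlap, and the log2 fold change was 0.69 ± 0.17 (1.61-fold, 95% interval 1.24 to 2.08, adjusted p 0.118). DUSP1 was at 7.14, 8.30 and 7.77 CPM with lactate, against 6.00, 4.02 and 4.37 CPM in controls. Its groups did not overlap either, with a log2 fold change of 0.66 ± 0.16 and an adjusted p of 0.0984. DUSP4 was at 12.5, 11.3 and 10.8 CPM with lactate, against 8.29, 7.03 and 11.1 CPM in controls. DLD1 control 3 reached the lactate range, and the log2 fold change was 0.36 ± 0.16 (adjusted p 0.258). DUSP2 was at 3.27, 2.37 and 3.57 CPM with lactate, against 3.08, 2.61 and 3.59 CPM in controls. These ranges covered each other, and the log2 fold change of -0.04 had a 95% interval of -0.44 to 0.36.

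DUSP6 was the most abundant member in DLD1, at 226, 202 and 199.8 CPM with lactate, against 158, 163 and 148 CPM in controls. No lactate library overlapped a control, and the log2 fold change was 0.39 ± 0.10 (1.31-fold, 95% interval 1.13 to 1.53, adjusted p 0.122). DUSP7 was at 18.8, 12.9 and 15.9 CPM with lactate, against 12.9, 11.9 and 15.7 CPM in controls. The groups overlapped, with a log2 fold change of 0.21 and a 95% interval of -0.10 to 0.52. DUSP10 was at 19.1, 18.4 and 17.4 CPM with lactate, against 13.2, 14.9 and 14.3 CPM in controls. Its libraries lay close together within each group and did not overlap, with a log2 fold change of 0.35 ± 0.13 (1.28-fold, adjusted p 0.188). DUSP8 had 15 to 17 reads with lactate and 4 to 37 in controls, from 0.268 CPM in control 2 to 1.93 CPM in control 3. DUSP16 was at 0.666, 1.29 and 0.838 CPM with lactate, against 2.08, 1.47 and 0.989 CPM in controls, and DUSP14 at 2.06, 3.56 and 1.68 CPM, against 2.13, 3.48 and 3.07 CPM. The 95% intervals were -1.38 to 0.83 on the log2 scale for DUSP8, -1.60 to 0.16 for DUSP16, and 0.498-fold to 1.38-fold for DUSP14. A difference was again not detectable for these 3 at this depth.

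The DLD1 calls depended on the controls that stood apart and on the fit. Over all tested genes 67 were called with all 12 libraries and 149 without DLD1 control 2. Without DLD1 control 3 edgeR called 4 members higher, DUSP1 (log2 0.57, adjusted p 0.0306), DUSP4 (0.55, 0.0226), DUSP5 (0.76, 0.0132) and DUSP6 (0.35, 0.0272), among 3791 genes called in that fit. Without control 2 it called DUSP6 (0.43, adjusted p 0.0309), and without control 2 and control 3 together it called 0 members, with the spread of the remaining control taken from the other groups. After removal of the trend along GC content and length, DUSP1 (0.52, adjusted p 0.0488), DUSP6 (0.41, 0.00166) and DUSP10 (0.43, 0.0378) were called higher, among 608 genes. Without a filter on low counts DUSP1 (adjusted p 0.00155) and DUSP5 (2.63e-05) were, among 855 genes. A lactate effect that runs along GC content would be removed with it.

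**Figure D3:**
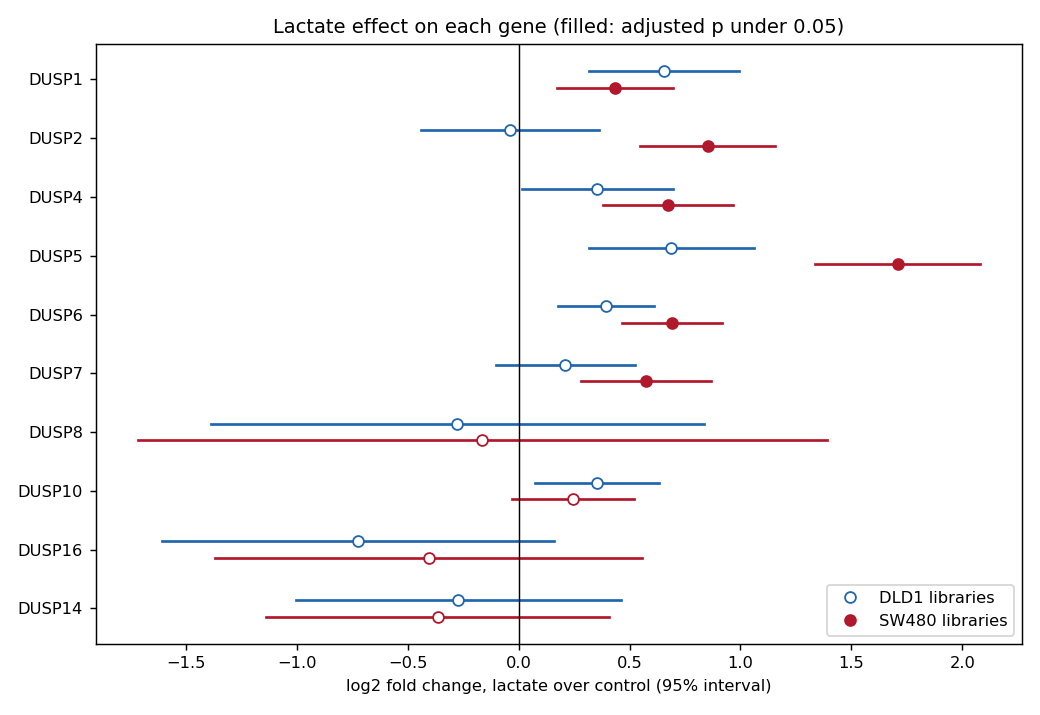
Log2 fold change of lactate over control for each member in DLD1 and in the libraries labelled SW480, with 95% intervals from edgeR; filled points have an adjusted p under 0.05. The 6 filled points are all in the libraries labelled SW480, and the intervals of DUSP8, DUSP16 and DUSP14 are the widest.

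**Figure D4:**
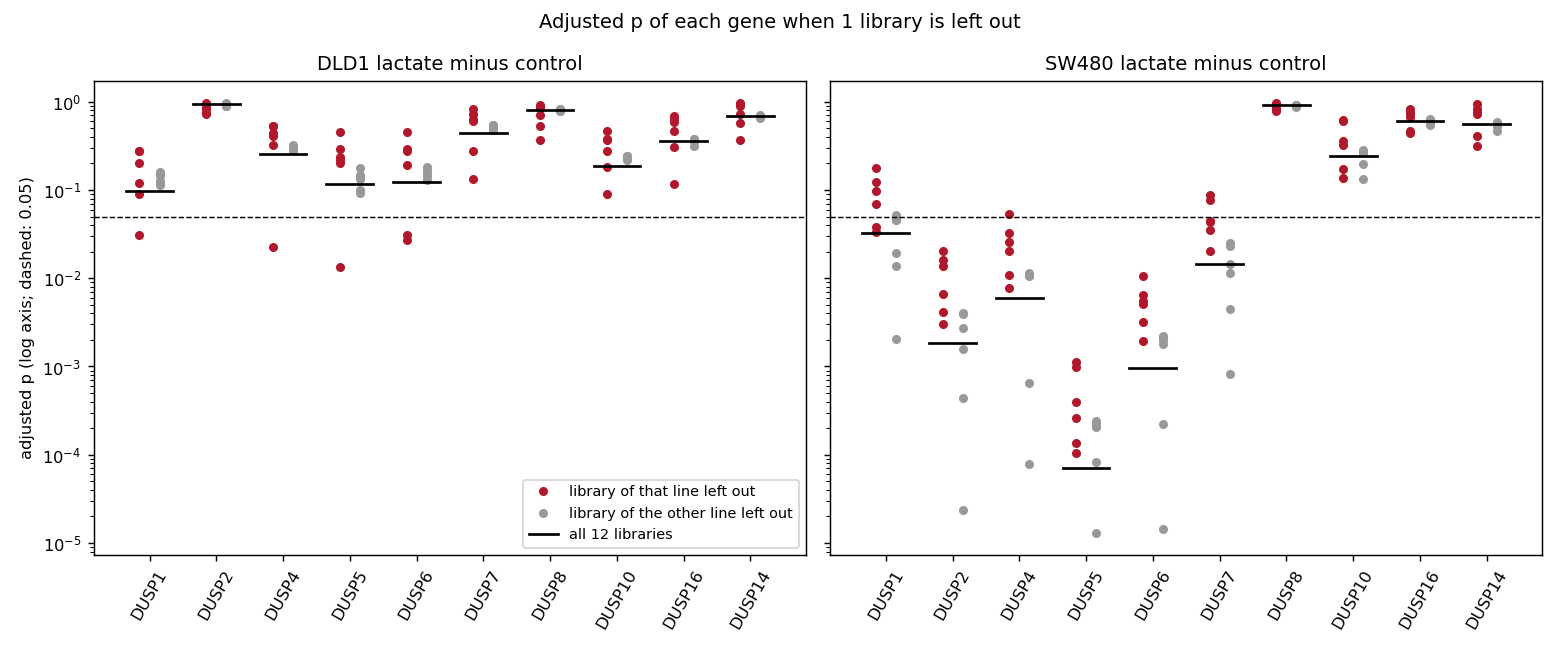
Adjusted p (log axis) of each member in each line with all 12 libraries (bar) and with 1 library left out (points), for libraries of the same line and of the other line. DUSP2, DUSP5 and DUSP6 stay under 0.05 in every fit of the libraries labelled SW480, and DUSP1, DUSP4, DUSP5 and DUSP6 come under it in DLD1 when certain controls are left out.

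Whether the response differed between the lines was tested as an interaction, the log2 lactate effect in DLD1 minus that in the libraries labelled SW480. The test called 0 of the 10 members, beside 0.728% of all tested genes. At an unadjusted p under 0.05 it reached DUSP5 and DUSP2, beside 16.8% of all tested genes. DESeq2 called both, beside 4.85% of the genes it gave an adjusted p, and limma-voom 0, beside 0.541%. DUSP5 had an effect of 0.69 in DLD1 and 1.71 in the libraries labelled SW480, a difference of -1.02 with a 95% interval of -1.54 to -0.50 (adjusted p 0.0668). DUSP2 had effects of -0.04 and 0.85, a difference of -0.89 (95% interval -1.39 to -0.39, adjusted p 0.0907). Both passed the threshold without a filter and after removal of the trend along GC content. Those fits called 837 and 1432 of all genes for the interaction, against 128 in the main fit, so their background share was larger. For DUSP1 the difference was 0.22 (95% interval -0.20 to 0.65), for DUSP6 -0.30 (-0.61 to 0.01), for DUSP7 -0.36 (-0.79 to 0.06), for DUSP4 -0.32 (-0.77 to 0.13) and for DUSP10 0.11 (-0.28 to 0.50). After that removal DUSP7 was called too (-0.56, adjusted p 0.0101).

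Without lactate 7 of the 10 members were called different in level between the lines, beside 70.8% of all tested genes. DUSP6 was higher in DLD1 controls, at 156 ± 7.63 CPM, than in SW480 controls, at 42.1 ± 4.26 CPM (log2 1.83 ± 0.11, adjusted p 6.42e-10). The other 6 called members were lower in DLD1 controls. DUSP1 was at 4.80 ± 1.06 CPM in DLD1 controls and 884 ± 87.2 CPM in SW480 controls, a log2 difference of -7.58 ± 0.17 (adjusted p 1.97e-14). DUSP4 was at 8.82 ± 2.11 and 307 ± 38.8 CPM (log2 -5.18 ± 0.17, adjusted p 8.12e-13), and DUSP2 at 3.09 ± 0.491 and 23.7 ± 3.07 CPM (-2.99 ± 0.17). DUSP7 (-1.61), DUSP5 (-1.17) and DUSP10 (-0.66) differed less. Calls at this threshold were made for 33.6% of all tested genes upward and 37.3% downward, so 7 of 10 members called was near the background of 70.8%. The libraries of the 7 did not overlap between the control groups, as held for 35.1% of all tested genes upward and 35.5% downward. DUSP8 was at 0.963 ± 0.861 CPM in DLD1 controls and 0.338 ± 0.209 CPM in SW480 controls (log2 1.41, adjusted p 0.0512). DUSP16 (0.37, 95% interval -0.52 to 1.27) and DUSP14 (0.03, -0.71 to 0.78) were not called. Because the data go against the SW480 label, these differences belong to the libraries as labelled.

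Per kilobase of transcript DUSP6 stood first in DLD1 and DUSP1 in the libraries labelled SW480. In DLD1 lactate libraries DUSP6 led with 47.5 ± 3.29 CPM per kilobase, followed by DUSP5 (28.2 ± 2.81), DUSP10 (6.85 ± 0.319), DUSP7 (4.75 ± 0.872) and DUSP1 (3.83 ± 0.287), and DUSP4, DUSP2 and DUSP14 lay between 2.09 and 1.10. DLD1 controls had the same first 5, with DUSP6 at 35.6 ± 1.73 and DUSP5 at 17.2 ± 1.88 CPM per kilobase. Ranges of neighbours overlapped between DUSP7 and DUSP1 and between DUSP4, DUSP2 and DUSP14 in turn in DLD1 lactate libraries, and between DUSP1, DUSP2, DUSP4 and DUSP14 in turn in DLD1 controls. In SW480 lactate libraries DUSP1 led with 581 ± 38.4 CPM per kilobase, followed by DUSP5 (118 ± 23.7), DUSP4 (86.8 ± 7.57), DUSP2 (24.9 ± 1.16), DUSP7 (17.2 ± 1.31) and DUSP6 (15.2 ± 1.34). In SW480 controls DUSP4 (55.4 ± 7.01) stood above DUSP5 (36.9 ± 8.96), so this pair changed places with lactate. The ranges of the pair did not overlap in either group. In controls the lowest DUSP4 library (47.8) was only a little above the highest DUSP5 library (46.4). The change of places depends on the transcript lengths used, 5537 bases for DUSP4 and 2557 for DUSP5. In CPM alone DUSP4 stood above DUSP5 in both SW480 groups. DUSP7 and DUSP6 overlapped in SW480 lactate libraries, and DUSP6 and DUSP10 in SW480 controls. DUSP16 and DUSP8 were last in all 4 groups.

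**Figure D5:**
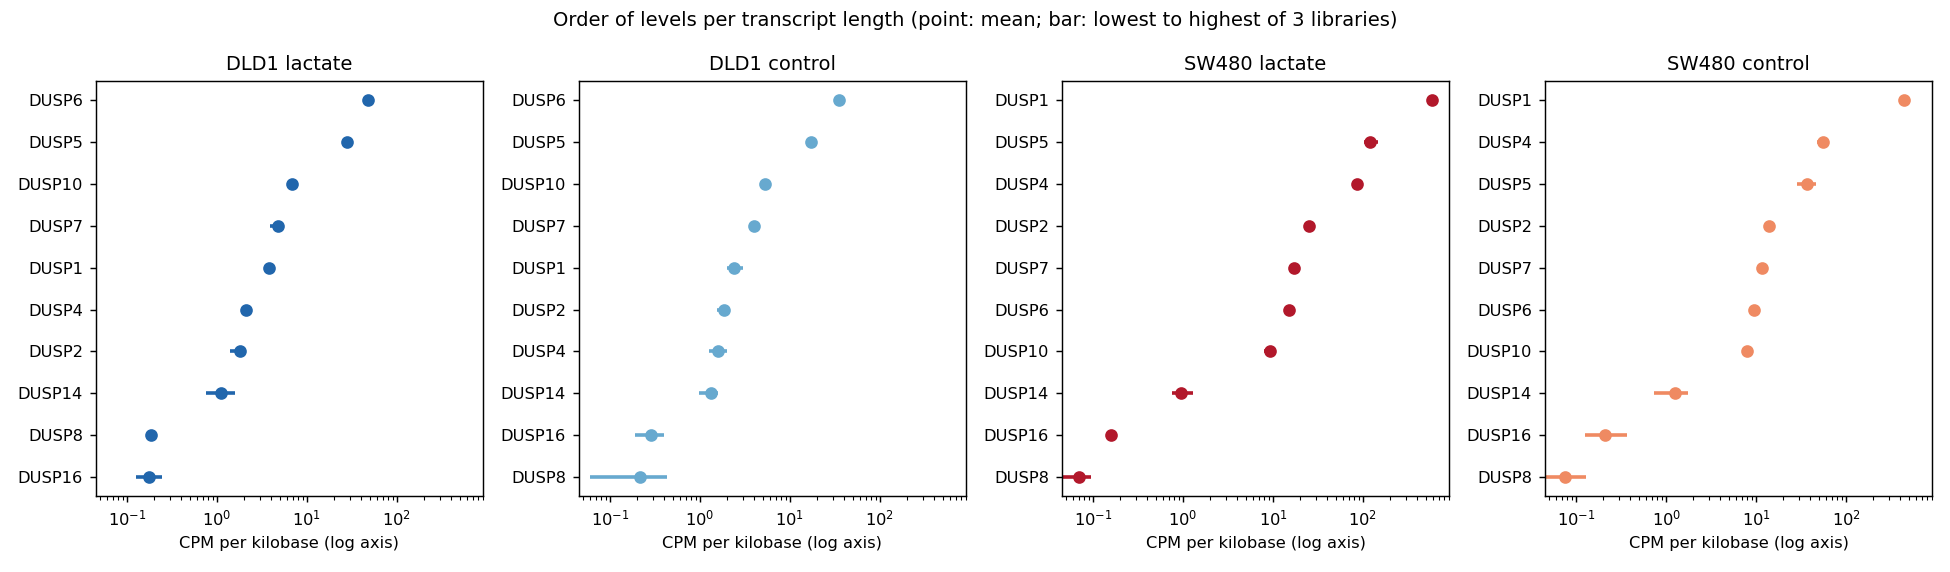
Members in order of their level in CPM per kilobase of transcript (log axis) in each group; points are means and bars run from the lowest to the highest of 3 libraries. DUSP6 leads in both DLD1 groups and DUSP1 in both SW480 groups, and DUSP4 and DUSP5 change places between SW480 lactate and control libraries.

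DUSP1 gave 2.28% of the summed CPM of the members in DLD1 lactate libraries and 1.92% in DLD1 controls, and 54.6% in SW480 lactate libraries and 62.5% in SW480 controls. DUSP6 gave 61.2% and 62.6% in DLD1 lactate and control libraries, and 3.13% and 2.98% in those of SW480. One further member of the family, DUSP9, a cytoplasmic ERK phosphatase outside the 10, had at most 1 read in any DLD1 library, and 11.1 ± 1.83 CPM in SW480 lactate libraries and 12.5 ± 1.10 CPM in SW480 controls.

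Genes of the kinase cascade and other phosphatases were read against the share of all tested genes called, 0.381% in DLD1 and 12.4% in the libraries labelled SW480. At the DLD1 share a list of this size would hold about 0 calls. Of 10 MAP kinase genes, 15 genes of RAS, RAF and MAP kinase kinases and 11 genes of kinases that MAP kinases activate, all were tested and 0 were called in either line. The median log2 fold changes of the MAP kinase genes were 0.07 in DLD1 and 0.05 in the libraries labelled SW480. Of 16 MAP kinase kinase kinases of the stress branches, MAP3K13 (log2 0.37) and MAP3K5 (0.43), which lies upstream of JNK and p38, rose in the libraries labelled SW480, each with an adjusted p of 0.0331. Both calls were weak, since each was lost when any 1 of 6 libraries was left out and also without a filter on low counts (adjusted p 0.0897 and 0.0767). Being 2 of 16, they lie near the share of all tested genes called. Of 16 other dual-specificity phosphatases and their catalytically dead relatives 11 were tested, and of 9 other phosphatases of MAP kinases 8 were, with 0 called in either line. DUSP3, a small phosphatase of ERK and JNK, was at 89.1 ± 3.74 CPM in DLD1 lactate libraries and 89.4 ± 5.51 CPM in controls, and at 141 ± 6.68 CPM in SW480 lactate libraries and 148 ± 5.58 CPM in controls.

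Some other genes read as output of ERK signalling rose beside the phosphatases in the libraries labelled SW480. Of 14 such genes 13 were tested, and 5 rose and 0 fell there (median log2 fold change 0.41). Of all tested genes 6.83% were called higher and 5.59% lower in that comparison. PHLDA1, an early-response gene, was at 779.9 ± 34.6 CPM with lactate and 251 ± 45.6 CPM in SW480 controls (log2 1.66, adjusted p 2.08e-05). FOSL1, an AP-1 subunit, was at 113 ± 12.2 and 45.0 ± 6.12 CPM (log2 1.36), and the feedback inhibitors of receptor signalling SPRY2 and SPRY4 rose by 1.003 and 0.93 on the log2 scale. These 4 calls held without any 1 library. The fifth was EGR1 (log2 0.77, adjusted p 0.00222), named after its value was seen. In DLD1 0 of the 13 were called, with a median of 0.19. The interaction was called for PHLDA1 (-1.55) and SPRY2 (-0.93), beside 0.728% of all tested genes.

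Of 12 transcription factors downstream of MAP kinases, ETS1 (log2 1.34), ELK3 (0.54), ETS2 (0.40) and JUN (0.63) rose in the libraries labelled SW480 and 0 fell. The share of all tested genes called there was 6.83% higher and 5.59% lower. ETS1 was at 151 ± 27.3 CPM with lactate and 60.4 ± 7.87 CPM in SW480 controls. JUN, an AP-1 subunit, was the one gene of these lists called in DLD1, at 64.5 ± 14.3 CPM with lactate and 29.4 ± 7.89 CPM in controls (log2 1.10, adjusted p 0.0221). JUN was no longer called there without DLD1 lactate 1 (0.146), lactate 2 (0.0609) or control 1 (0.116), or with DLD1 fitted alone (0.256). The JUN call in the libraries labelled SW480 (adjusted p 0.0302) was lost when any 1 of 5 libraries was left out (adjusted p at most 0.146), and that of ETS2 without SW480 control 1 (0.0864). Transcripts of several phosphatases carry AU-rich elements, which the ZFP36 family binds to shorten the life of the RNA. Of 7 AU-rich binding proteins, ZFP36L1 (487 ± 70.6 CPM with lactate, 181 ± 33.6 CPM in SW480 controls, log2 1.46) and ZFP36 (272 ± 46.7 and 111 ± 21.9 CPM, log2 1.32) rose in the libraries labelled SW480, and 0 were called in DLD1. The median log2 fold change of the 7 in the libraries labelled SW480 was -0.06, so the list as a whole did not rise.

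For each member the genes with the most alike profile over the 12 libraries were found among 11602 genes outside the members, by the root mean square difference of centred log2 CPM. DUSP5 was closest to BHLHE41 (0.18), which was at 7.39 and 4.18 CPM in DLD1 lactate and control libraries and 28.9 and 10.3 CPM in those of SW480, and then to ZFP36 (0.27). DUSP1 was closest to PLIN2 (0.21), at 1.44 and 1.16 CPM in DLD1 lactate and control libraries and 329 and 199.3 CPM in those of SW480. DUSP4 was closest to AVPI1 (0.15), DUSP2 to SLC25A45 (0.14), DUSP6 to F11R (0.14) and ID2 (0.15), DUSP7 to NCKAP5L and ABL1 (both 0.11) and DUSP10 to WSB1 and STARD13 (both 0.12). The profiles of DUSP1, DUSP2 and DUSP4 differ far more between the lines than between treatments, so there the measure mainly describes the lines. For DUSP6, DUSP7 and DUSP10 the line difference was also the larger, at 1.83, -1.61 and -0.66 on the log2 scale in controls. Their lactate effects were 0.39, 0.21 and 0.35 in DLD1 and 0.69, 0.58 and 0.24 in the libraries labelled SW480. For DUSP8 (EEF1D, 0.37), DUSP16 (NEK11, 0.32) and DUSP14 (CEP162, 0.32) the nearest profiles were further away, where the SD of the gene's own log2 profile was 0.80, 0.52 and 0.44. Among the members themselves DUSP5 and DUSP7 were the most alike pair, at 0.48.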

How the data were processed

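The authors deposited 1 table of raw read counts, whole numbers per gene symbol with a column for each of the 12 libraries. HISAT2 and GRCh38 are named for the alignment, per the submitters' processing notes. Its version, the tool that counted reads, the gene annotation and the use of strand were not given in the sources used here.

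The counts were tested with edgeR 4.0.16 in R 4.3.3. Low genes were removed by group with filterByExpr, scaling was by TMM, and a robust quasi-likelihood fit over all 12 libraries gave each group its own mean. Tests were two-sided, with Benjamini-Hochberg adjustment over 17572 genes and a threshold of 0.05. SEs come from the F statistic and 95% intervals from its 14.5 degrees of freedom. Fold changes use TMM scaling, while printed CPM divide by the library total. Gene positions are from RefSeq on GRCh38.p14. Transcript lengths and GC content are those of the longest transcript of each gene in the GENCODE basic annotation. The p-values measure the spread between libraries labelled as biological replicates.

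Each member was named whatever its p. Per related list and line, up to 4 called genes with the smallest p were named, and per member the 2 most alike genes with a mean of at least 5 CPM. Members and lists were chosen with earlier results of these data known. The alternatives tried were upper quartile or median-of-ratios scaling, other filters (none, or 1 CPM in at least 3 libraries), limma-voom with limma 3.58.1, DESeq2 1.42.0, a replicate block, single-line fits, each library left out, and removal of a spline trend (5 degrees of freedom) along transcript GC content and length, with GC content at hand for 88.2% of the genes. Leaving out DLD1 controls 2 and 3 together was chosen after seeing the data. Pairs of libraries of a group differed with a chi-square per degree of freedom of 4.31 to 71.4, so none looks like another sequenced again. These values cannot tell separate cultures from separate preparations of the same culture. The scripts were checked on simulated data.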

Additional observations from a re-analysis of the deposited data

Results flagged for a closer look

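The lactate effect differed between the lines for 4 genes of the related lists, by edgeR's interaction test over all tested genes. The lists hold 128 entries and were chosen with earlier results of these data known. That test called 0.728% of all tested genes. Each difference is the log2 lactate effect in DLD1 minus that in the libraries labelled SW480. PHLDA1 had effects of 0.11 in DLD1 and 1.66 in the libraries labelled SW480, a difference of -1.55 ± 0.19 (SE, adjusted p 0.00374), which held without any 1 library. ETS1 had -0.13 and 1.34, a difference of -1.47 ± 0.23 (adjusted p 0.0143), and lost its call without SW480 control 1 (0.0680) or control 3 (0.0562) or DLD1 lactate 3 (0.0559). SPRY2 had 0.08 and 1.003, a difference of -0.93 ± 0.16 (adjusted p 0.0168), lost when any 1 of 6 libraries was left out (at most 0.0718). ZFP36L1 had 0.21 and 1.46, a difference of -1.25 ± 0.21 (adjusted p 0.0168), lost when any 1 of 5 libraries was left out (at most 0.0687) and without DLD1 controls 2 and 3 together (0.0580). No member of the phosphatase family met the threshold for such a difference.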

How the results depend on the processing

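All 6 members called in the libraries labelled SW480 were called under each alternative other than leaving out 1 library, and DUSP2, DUSP5 and DUSP6 also without any 1 library. Leaving out 1 library gave 3 to 6 members called there (3 without SW480 control 1), 0 to 4 in DLD1 (4 without control 3, 1 without control 2), 0 to 1 for the interaction (1 without SW480 lactate 1 or control 2, or DLD1 control 2 or 3) and 7 to 8 between the controls of the lines. Over all tested genes the counts, with all libraries and as a range without 1 library, were 2183 and 689 to 4347 in the libraries labelled SW480, 67 and 3 to 3791 in DLD1, 128 and 9 to 1508 for the interaction, and 12448 and 11736 to 13260 between controls. In the libraries labelled SW480 the count was 689 and 1219 when control 1 or control 3 was left out, 855 and 1211 for lactate 2 or lactate 3, and 4347 for DLD1 control 2. In DLD1 it was 3 without control 1, 149 without control 2, 3791 without control 3, 7 to 12 without a lactate library, and 30 to 42 without SW480 lactate 1, 2 or 3 or control 2 or 3. For the interaction it was 9 to 61 without SW480 control 1 or 3, SW480 lactate 2 or 3, any DLD1 lactate library or DLD1 control 1, 238 without SW480 lactate 1, 596 without DLD1 control 2 and 1508 without DLD1 control 3. In DLD1 the members and genes called were 3 and 608 after removal of the GC content trend, 3 and 684 in DESeq2, 2 and 855 without a filter, and 589 genes without DLD1 controls 2 and 3. For the interaction they were 3 and 1432 with the trend removed, 2 and 719 in DESeq2, 2 and 837 without a filter, and 627 genes without those controls. In the libraries labelled SW480 5032 genes were called with the trend removed, 4783 with the line fitted alone and 4722 without DLD1 controls 2 and 3, and DLD1 fitted alone gave 1. The cause of these changes was not tested.

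The deviations of same-numbered lactate and control libraries correlated at r of 0.07, 0.07 and 0.14 in the libraries labelled SW480 and -0.17, 0.19 and 0.27 in DLD1, and those of differently numbered libraries at -0.28 to 0.09. Numbers 2 and 3 thus deviated together in DLD1, and 4 of 6 lactate libraries correlated best with the control of their own number, a hint from the data. Since r was not over 0.1 in every pair, the numbers were not taken as pairs. With a replicate block the members called were 6 in the libraries labelled SW480, 1 in DLD1 (DUSP5, adjusted p 0.0169, among 184 genes), 2 for the interaction (274 genes) and 7 between controls. The block with the GC trend removed gave 4 members (DUSP5 at 0.00154) and 577 genes in DLD1, 3 and 1332 for the interaction, and 4895 genes in the libraries labelled SW480.

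The interaction of DUSP5 had an adjusted p of 0.00498 in DESeq2, 0.0101 with the block, 0.0318 with the trend removed and 5.17e-06 without a filter, and that of DUSP2 0.0105, 0.0459, 0.00181 and 0.0308. Of 891 values of single members under the alternatives, 810 kept direction and side of the threshold, 8 lost a call, 40 gained one and 33 changed sign, none of them a value called with all libraries. Signs changed for DUSP7 in DLD1 with the trend removed (-0.0501, and -0.0503 with the block too), for DUSP8 in limma-voom (0.0805 in DLD1, 0.13 for the interaction) and without DLD1 controls 2 and 3 (0.21 and 0.37), and for DUSP14 without those controls (0.15 in DLD1, -0.37 between controls). The interaction of DUSP1 was -0.10 without those controls, and that of DUSP14 -0.0072 in limma-voom and -0.0211 with block and trend removal. DUSP14 between controls was -0.19 with the block and -0.0881 with block and trend removal. Without 1 library the log2 values of genes whose sign changed ran from -0.46 to 0.52 for DUSP8 and from -0.65 to 0.26 for DUSP16 in the libraries labelled SW480. In DLD1 they ran from -0.18 to 0.13 for DUSP2 and from -0.67 to 0.68 for DUSP8. For the interaction they ran from -0.79 to 0.84 for DUSP8, from -0.0331 to 0.20 for DUSP10, from -0.98 to 0.004 for DUSP16 and from -0.28 to 0.38 for DUSP14, and between controls from -0.24 to 0.34 for DUSP14.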
